A study of Mus musculus with 17 samples.

Results

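The comparison set lungs of PPARα null mice (KO) against lungs of mice that carry human PPARα (KI), all of them on perfluorooctanoic acid (PFOA). The members are the 6 Hi-PFOA libraries of these genotypes, out of 17 libraries in the series, read over 26062 autosomal genes that had 20 or more counts in all over the table. KO mice were animals 52, 154 and 155, and KI mice were animals 57, 80 and 139. Both genotypes came from breeding mouse PPARα-null mice with mice heterozygous for human PPARα, so neither carries mouse PPARα by design, and the groups differ in the human receptor. All mice ate a diet modelled on the American diet from 6 weeks of age, and PFOA mice drank 6.2 μg/mL PFOA in 0.5% sucrose water for 14 weeks. KO and KI mice on vehicle drank the sucrose water alone (3 libraries each) and are used here as the background measured the same way. Wild type (WT) Sv/129 mice on PFOA (3 libraries) are given for reference only. RNA came from snap-frozen whole lung, so each value is an average over all lung cell types. Each library is from 1 mouse, and p-values measure the spread between mice.

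PPARα is a nuclear receptor that pairs with RXR, binds fatty acids and related ligands, and turns on genes for fatty acid uptake, and mitochondrial and peroxisomal oxidation. PFOA resembles a fatty acid and activates it. In lung, PPARα is expressed at a modest level, and its known targets include Pdk4, Angptl4 and the Acot thioesterases.

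The KO PFOA libraries held 6646114 to 9237385 counts and the KI PFOA libraries 7242040 to 9027308. There 3 counts correspond to 0.325 to 0.451 and 0.332 to 0.414 CPM (counts per 1e6), taken over the library total without TMM factors. CPM values of genes are scaled to library size by TMM. The 6 libraries were alike in the share of counts in protein-coding genes, at 74.4% to 78.5%. Among vehicle libraries, KO 137 stood apart with 4116116 counts and 61.3% in protein-coding genes, so vehicle counts over all genes and over the lists compared with vehicle are also given without it. Sex and library index were not balanced. The 3 KO PFOA mice were female and shared 1 i5 index, while KI 57 was male, KI 80 and KI 139 were female, and each KI library had an i5 index of its own. Within these 6 libraries genotype and i5 index cannot be told apart, and leaving out KI 57 leaves females only. A fit with i5 index as a term draws on the other groups.

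In Ppara and Zfp949 the library labelled KI 139 stood with the KO libraries. In other genes below, such as Pex11a, Tef and Aox3, it stood with KI 57 and KI 80. All were named for their small p, and Pex11a and Tef also for lack of overlap between KO and KI. That choice by itself puts KI 139 on the KI side, so these genes do not bear on its label. In Doc2b and 6820402A03Rik it was nearer to the KI vehicle libraries than KI 57 and KI 80 were. Ppara, the gene of the receptor (chromosome 15, 85734983 to 85802819, plus strand, mm10), was at 20.4 CPM in KI 57 and 14.9 in KI 80, but at 9.08 in KI 139. The KO PFOA libraries had 10.1, 11.3 and 8.82 CPM, KO vehicle 9.17 to 11.8, KI vehicle 12.7 to 15.3 and WT PFOA 4.39 to 6.94. Thus KI 139 lay within the range of the KO libraries, and the KO libraries lay above the WT libraries. How reads of human PPARα align to the mouse gene and which part of mouse Ppara is deleted are not given in the sources used here, so this gene-level count does not check the deletion. Zfp949, which separated KI from KO in every vehicle library, also placed KI 139 with KO on PFOA, as described next. Counts over all genes and over the gene lists are therefore given with KI 139, as labelled, and without it, and so are the single genes whose value turns on it.

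**Figure D1:**
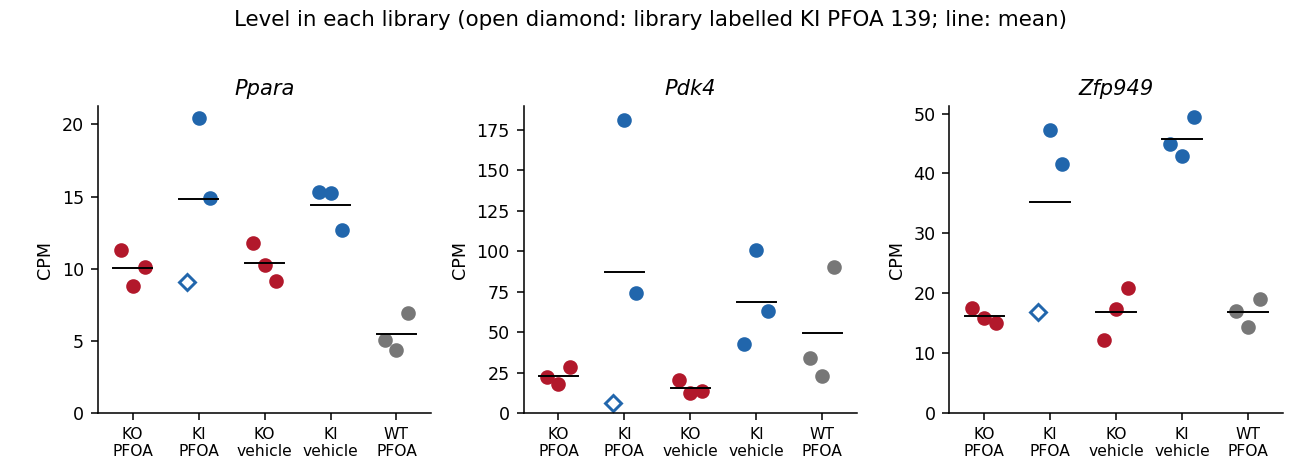
Level of Ppara, Pdk4 and Zfp949 in CPM (y axis, from 0) in each library of 5 groups (x axis). Points are mice, lines are group means, and the open diamond is the library labelled KI 139, which sits at 16.9 CPM for Zfp949 while KI 57 and KI 80 sit at 47.3 and 41.6.

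With all 6 libraries, 0 of 26062 genes (0%) passed an adjusted p under 0.2 with a fold change over 2 by the edgeR quasi-likelihood test (Benjamini-Hochberg adjustment), the smallest adjusted p was 1, and DESeq2 called 1. At an unadjusted p under 0.05 there were 597 genes, of which 270 (1.04% of those tested) were higher in KO and 327 (1.25%) higher in KI. None of the single genes below was therefore a call with all 6 libraries, and they are described by their values. The median log2 difference (KO minus KI) over all genes was -0.0086, and the median standard error was 0.25 for genes of at least 1 CPM. Of 18362 genes at a mean of at least 1 CPM, 901 (4.91%) had every KO library above every KI library and 646 (3.52%) every KO library below. Without KI 139, 5 genes (0.0192%) were called, with 399 (1.53%) at an unadjusted p under 0.05 higher in KO and 427 (1.64%) higher in KI. Without KI 57, 195 (0.748%) were higher in KO and 215 (0.825%) higher in KI at that threshold.

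The level of Zfp949 followed the KI label in every KI library but KI 139. Zfp949, a zinc finger gene (chromosome 9, 88548020 to 88571061, plus strand), was chosen after its values were seen. It was at 15, 17.6 and 15.8 CPM in KO and at 47.3, 41.6 and 16.9 CPM in KI 57, 80 and 139. KI vehicle libraries had 42.9 to 49.4 CPM, KO vehicle 12.2 to 20.8 and WT PFOA 14.5 to 19, so KI 139 was the only one of 6 KI libraries in the range of the KO libraries. The log2 difference was -1.13 ± 0.27 (SE, n = 3 and 3, unadjusted p = 0.000534 by edgeR) with all 6 libraries and -1.46 ± 0.19 (adjusted p = 0.0063 by edgeR, 2.04e-09 to 1 over 34 alternatives) without KI 139. Without KI 57, which leaves the females KI 80 and KI 139, it was -0.86 (unadjusted p = 0.00644 by edgeR). With i5 index as a term it was -0.87, and on vehicle -1.42 (unadjusted p = 5.22e-05 by edgeR). Of the other genes starting within 1 Mb of Zfp949 (31 tested), 0 had an unadjusted p under 0.05 by edgeR on PFOA and 6 on vehicle. Of all genes, 2.29% had such a p on PFOA and 8.21% on vehicle. The 21 neighbours of Zfp949 at 1 CPM or more had log2 differences from -0.39 to 1.96 on PFOA. Beside the same shares of all genes, the 28 within 1 Mb of Ppara gave 0 on PFOA and 1 on vehicle. Of these, the 20 at 1 CPM or more had log2 differences from -0.36 to 0.43, and the 4 with the smallest p were Gramd4, Cdpf1, Smc1b and Upk3a.

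Ppara itself had a log2 difference of -0.56 ± 0.25 (unadjusted p = 0.037 by edgeR), or -0.81 (unadjusted p = 0.00234) without KI 139, and -0.48 on vehicle (unadjusted p = 0.0736). It was the 1 gene of 17 receptors and cofactors with an unadjusted p under 0.05, and without KI 139 Lpin1 was below it as well. The related receptors Ppard and Pparg and the partner Rxra did not stand apart, with log2 differences of 0.10 ± 0.16, -0.14 ± 0.26 and -0.05 ± 0.13. Their cofactors Ppargc1a, which drives mitochondrial genes, and Lpin1, which acts with it, had -0.49 ± 0.35 and -0.44 ± 0.28, and Rxrb had -0.13 ± 0.15. The median of the list was -0.02.

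Known PPARα target genes were on the KI side, and the extent turned on single KI libraries. Of 38 listed targets, 34 were tested, and 28 of these had a lower mean in KO, with a median log2 difference of -0.22 against -0.0086 over all genes. At an unadjusted p under 0.05, 6 were higher in KI (Pdk4, Pex11a, Acot2, Acot1 and Eci2 among them) and 0 higher in KO, a share of 17.6% beside the 1.25% of all genes. None was called with 6 libraries, and 1 was without KI 139. Without KI 139 the median was -0.38 and 13 were higher in KI, while without KI 57 the median was -0.03 with 2 higher in KI and 1 in KO. On vehicle the median was -0.53, with 19 higher in KI and 1 in KO (-0.39, 11 and 2 without KO 137). In all genes on vehicle, 5.37% were higher in KO and 2.84% higher in KI at that threshold, or 2.04% and 3.05% without KO 137. The summed level of the targets was 2135 to 2428 CPM in KO and 3457, 2997 and 1830 CPM in KI 57, 80 and 139, so that the KI libraries lay on both sides of KO.

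**Figure D2:**
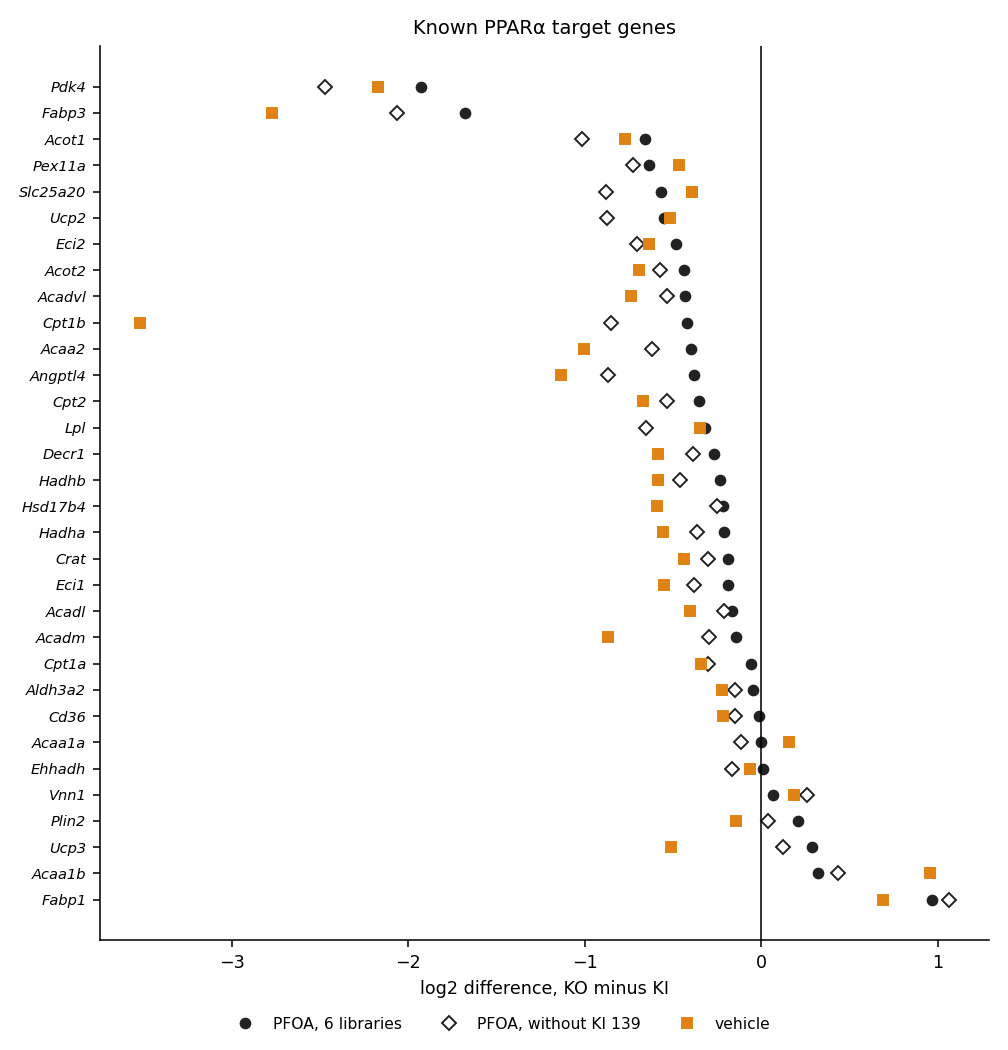
KO minus KI log2 difference (x axis) of 32 of the 34 PPARα target genes tested (y axis), on PFOA with 6 libraries (filled circles), on PFOA without KI 139 (open diamonds) and on vehicle (orange squares). Of the 32 filled circles, 26 lie left of 0, and the medians over all 34 genes are -0.22, -0.38 and -0.53.

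Pdk4, the kinase that shuts down pyruvate dehydrogenase when fatty acids are burned (chromosome 6, 5483351 to 5496309, minus strand), was at 28.7, 22.4 and 17.8 CPM in KO. In KI it was at 181 CPM in KI 57, 74.1 in KI 80 and 6.29 in KI 139, which put KI 139 below every KO library. The log2 difference of -1.93 ± 0.68 (unadjusted p = 0.0104 by edgeR) was -2.47 (adjusted p = 0.204 by edgeR, 0.00276 to 1 over the alternatives) without KI 139. Without KI 57 it was -0.81 (unadjusted p = 0.217 by edgeR), where KI is the females KI 80 and KI 139, so sex and the weight of KI 139 cannot be told apart. With i5 index as a term it was -0.15. KI 57 also held 11520 CPM of cardiac muscle genes, against 1074 in KI 80, 3935 in KI 139 and 664.6 to 3196 in KO, and Pdk4 is expressed in heart as well. The same holds for Fabp3, the heart fatty acid binding protein, which was at 18.3 CPM in KI 57 and 0.532 to 4.92 CPM in the other 5 libraries. On vehicle, too, cardiac muscle genes were higher in KI, with a median log2 difference of -2.29 (-4.24 without KO 137). Their summed level there was 577.2 to 4216 CPM in KO and 3864 to 13500 CPM in KI. The part of cardiac muscle RNA in these differences, and in those of the PPARα targets on vehicle, was not tested.

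The acyl-CoA thioesterases Acot1 and Acot2, which release free fatty acids from CoA, had the same order of libraries. Acot1 (chromosome 12, 84009490 to 84018371) was at 13.2, 15.6 and 12.7 CPM in KO and 25.8, 30.2 and 9.22 CPM in KI 57, 80 and 139. Its log2 difference was -0.66 ± 0.31 (unadjusted p = 0.0471 by edgeR), and -1.01 (unadjusted p = 0.000381) without KI 139. Acot2 had -0.44 ± 0.18 (unadjusted p = 0.0291). These are near-identical neighbours on chromosome 12, so the estimate of reads for each may borrow from the other. Pex11a, which divides peroxisomes, was the 1 target with every KO library (7.18 to 9.05 CPM) below every KI library (11.2 to 15.8 CPM), KI 139 included, at -0.64 ± 0.20 (unadjusted p = 0.00579). That is 2.94% of the targets tested, beside 3.52% of all genes of at least 1 CPM. In the other direction 1 target (2.94%) had every KO library above, beside 4.91% of all genes, so lack of overlap was not more frequent among the targets. Eci2, which helps oxidize unsaturated fatty acids, was at 15.4 to 20.6 CPM in KO and 32.8, 24 and 15.9 CPM in KI 57, 80 and 139 (-0.48 ± 0.22).

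Several other targets did not pass with KI 139 and did so without it. Angptl4, the secreted inhibitor of lipoprotein lipase, was at 44.4, 46 and 26.6 CPM in KO and 76.3, 66.7 and 9.22 CPM in KI 57, 80 and 139 (-0.38 ± 0.46, and -0.87 with an unadjusted p of 0.00767 by edgeR without KI 139). Slc25a20, the carnitine carrier of the mitochondrial membrane, was at 9.97 to 13.2 CPM in KO and 22, 20.2 and 8.66 CPM in KI (-0.57 ± 0.28, then -0.88). Ucp2, a mitochondrial carrier, was at 328 to 423 CPM in KO and 749, 682 and 284 CPM in KI (-0.55 ± 0.30, then -0.88). In each of these 3 genes KI 139 was the lowest of the 6 libraries. Cpt1a, the gate of mitochondrial fatty acid oxidation, showed -0.06 ± 0.23, and the lipid droplet protein Plin2 0.21 ± 0.29.

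The 250 bases before the RefSeq start are shown for Pdk4 and Acot1, which differed in the comparison above, and for Plin2, a known target that did not pass. They are from RefSeq (GRCm38.p6), 5′ to 3′ on the gene's strand, and for both Pdk4 and Acot1 the window runs into the gene as the deposited table places it. Capitals mark the stretch closest on either strand to the PPAR response element AGGTCANAGGTCA, which is a pair of AGGTCA half-sites with 1 base between. No such window was at hand for Angptl4.
Pdk4, chr6:5496279-5496528, minus strand: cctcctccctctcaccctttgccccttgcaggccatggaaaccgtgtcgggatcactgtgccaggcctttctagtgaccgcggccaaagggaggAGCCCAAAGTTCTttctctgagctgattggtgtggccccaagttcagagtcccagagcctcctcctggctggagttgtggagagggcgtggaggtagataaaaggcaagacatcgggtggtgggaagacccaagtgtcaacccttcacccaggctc
Acot1, chr12:84009252-84009501, plus strand: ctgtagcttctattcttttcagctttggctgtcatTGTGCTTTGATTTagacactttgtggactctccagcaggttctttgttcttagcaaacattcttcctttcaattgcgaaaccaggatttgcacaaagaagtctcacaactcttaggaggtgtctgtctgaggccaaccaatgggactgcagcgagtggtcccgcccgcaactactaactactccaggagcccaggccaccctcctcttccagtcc
Plin2, chr4:86670060-86670309, minus strand: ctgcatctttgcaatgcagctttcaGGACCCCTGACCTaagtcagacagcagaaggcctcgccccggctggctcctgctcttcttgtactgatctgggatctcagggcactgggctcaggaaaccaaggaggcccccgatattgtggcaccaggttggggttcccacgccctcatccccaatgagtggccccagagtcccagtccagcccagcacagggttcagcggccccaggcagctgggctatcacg
The stretch had 4 mismatches of 12 bases in Pdk4, 4 in Acot1 and 2 in Plin2, so that the closest match was in the gene that did not pass. With up to 3 mismatches, 8 of 26 targets with a window (30.8%) and 6392 of all 27025 windows (23.7%) held a match. A match is a description of these letters and not a site.

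Among the 5 genes that edgeR called without KI 139 were Zfp949, Doc2b, 6820402A03Rik and Gm15793, all chosen after their values were seen. Doc2b, a calcium sensor of vesicle release, was at 2.66, 5.86 and 2.69 CPM in KO and at 17.9, 13 and 0.559 CPM in KI 57, 80 and 139. WT PFOA libraries had 19.4 to 23.6 CPM, and KI vehicle libraries 0.956 to 2.80, so only KI 57 and KI 80 of the 6 KI libraries were near the WT level. The uncharacterised gene 6820402A03Rik was at 0 CPM in KI 57, in KI 80 and in the 3 WT PFOA libraries, at 12.2 CPM in KI 139, at 4.58 to 6.88 CPM in KO and at 6.24 to 7.59 CPM in KI vehicle. A level of 0 allows up to 0.332 CPM in KI 57 and 0.396 CPM in KI 80. Gm15793, a processed pseudogene that lies near it on chromosome 1 (66849108 to 66849602, beside 66793645 to 66796298), was at 0 CPM in the same 5 libraries, at 5.59 CPM in KI 139 and at 2.13 to 2.98 CPM in KO. It had an adjusted p of 0.0489 by edgeR (0.0325 to 1 over the alternatives), against 0.00107 for 6820402A03Rik (0.000909 to 1) and 0.164 for Doc2b (0.0048 to 1). With KI 139 the log2 difference of 6820402A03Rik was 0.48 ± 0.94.

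Other genes were near 0 in some libraries of a group and well above it in others. Gbp2b, an interferon-induced GTPase with close paralogs, was at 0.399, 42 and 22 CPM in KO and at 0.571 or less in KI, while WT PFOA libraries had 29.1 to 42 CPM. On vehicle it was at 19.6 to 24.1 CPM in KO and at 36, 0.127 and 0.141 CPM in KI. These levels varied within a group as much as between groups. Gbp2b was chosen after its values were seen.

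Circadian clock genes stood lower in KO than in KI on PFOA. Of 19 tested, 10 had an unadjusted p under 0.05 and were higher in KI (Per1, Per2, Per3, Cry1, Dbp, Tef, Hlf, Ciart and Bhlhe41 among them), 0 were higher in KO and none was called. The median log2 difference was -0.53 beside -0.0086 over all genes, and the share of 52.6% stands beside 1.25%. The genes named are the repressor arm of the clock (Per, Cry, Ciart and Bhlhe41) and its D-box activators (Dbp, Tef and Hlf), whose mRNAs cycle over the day. Without KI 139 the count was 5 and the median -0.43, without KI 57 it was 5 and -0.31, and with i5 index as a term the median was -0.31. On vehicle 1 of the 19 was higher in KI, Per1, and the median was -0.15 (2 and -0.16 without KO 137).

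**Figure D3:**
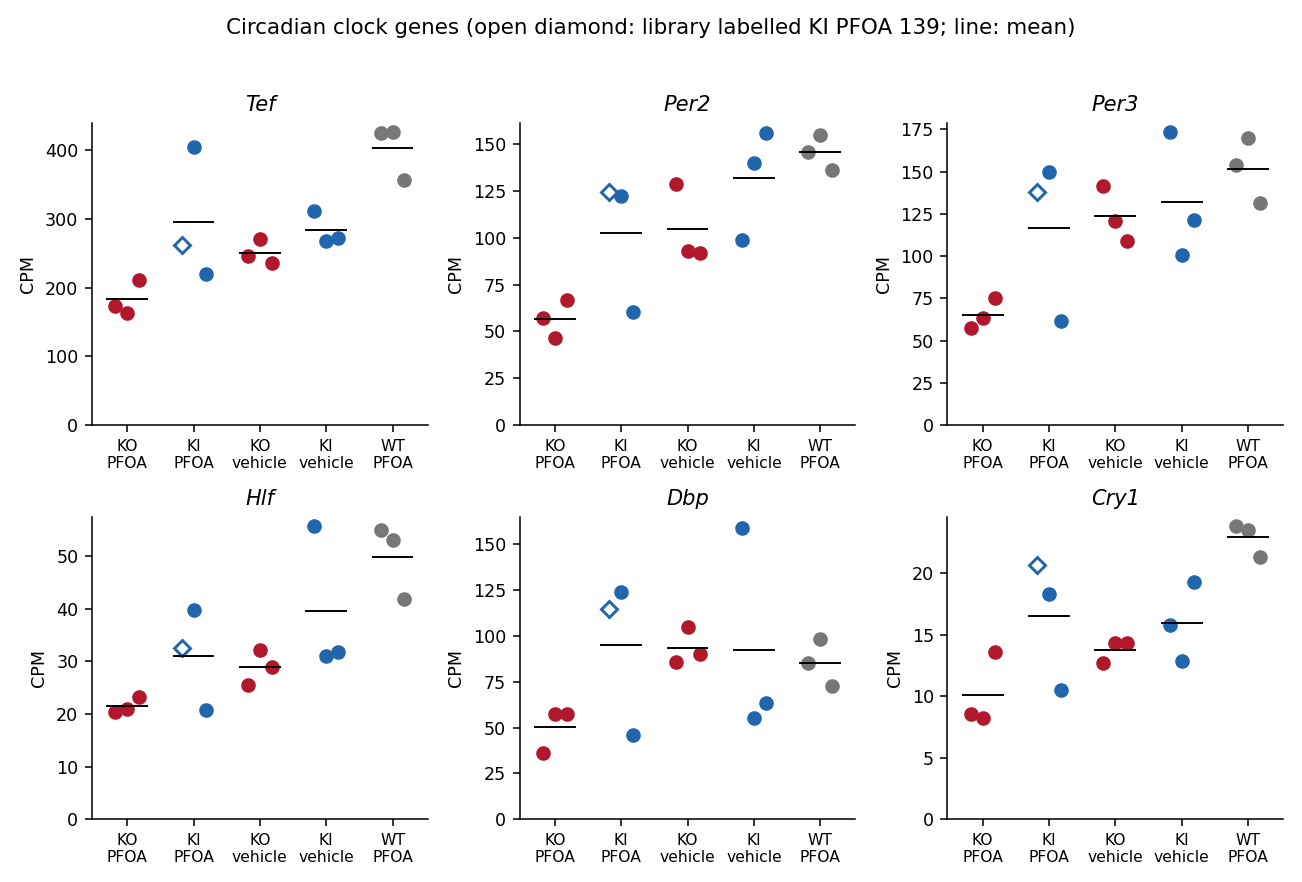
Level of 6 clock genes in CPM (y axis, from 0) in each library of 5 groups (x axis), with points for mice, lines for group means and an open diamond for the library labelled KI 139. KI 57 and KI 139 lie above the KO PFOA libraries and KI 80 lies near them, as in Per2 with 122, 124 and 60.4 CPM beside 46.4 to 67 CPM in KO.

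Tef (chromosome 15, 81802421 to 81826863) was the 1 clock gene without overlap, at 212, 173 and 164 CPM in KO and 404, 220 and 262 CPM in KI 57, 80 and 139 (-0.69 ± 0.19, unadjusted p = 0.00163 by edgeR). Per2 was at 67, 57.3 and 46.4 CPM in KO and 122, 60.4 and 124 CPM in KI (-0.85 ± 0.29, unadjusted p = 0.00912). Per3 was at 75.2, 57.7 and 63.2 CPM in KO and 150, 61.5 and 138 CPM in KI (-0.83 ± 0.27, unadjusted p = 0.00623). In these and in Dbp, Hlf and Bhlhe41, KI 80 was close to or within the KO range while KI 57 and KI 139 were above it. The WT PFOA libraries, at 136 to 155 CPM of Per2, were above every KI library on PFOA. The activators of the clock's core loop were on the other side, with Arntl at 0.40 ± 0.34, Npas2 at 0.82 ± 0.48 and Clock at 0.17 ± 0.21, none with an unadjusted p under 0.05. The repressor Nr1d1 was at -0.02 ± 0.27. Usp2, a clock-controlled deubiquitinase outside the list, was at 14.2, 7.88 and 10.5 CPM in KO and 34.4, 14.4 and 19.4 CPM in KI (-1.07 ± 0.30, unadjusted p = 0.00191), and its vehicle libraries did not overlap either (-0.78).

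T cell genes were higher in KO than in KI on PFOA and not on vehicle. Of 23 tested, 21 had a positive log2 difference, 7 had an unadjusted p under 0.05 and were higher in KO (Cd3g, Trbc1, Lck, Prkcq, Il7r, Ccr7 and Cd5), 0 were higher in KI and none was called. That share of 30.4% stands beside 1.04% of all genes, and the median was 0.48. Without overlap and with KO above were 5 of the 23 (21.7%, beside 4.91% of all genes of at least 1 CPM). The count was 4 without KI 139, 3 without KI 57 and 10 without KO 154. On vehicle the median was -0.28 with 3 higher in KI and 0 in KO (-0.33, 2 and 0 without KO 137). The KO minus KI difference was larger on PFOA than on vehicle at an unadjusted p under 0.05 in 8 of the 23, a share of 34.8%, beside 1.93% of all genes for a larger difference and 3.54% for a smaller one. The summed level was 179.9 to 260.3 CPM in KO and 135.6, 195.2 and 155.1 CPM in KI 57, 80 and 139, so the groups overlapped. In bulk lung, fewer T cells and less RNA per T cell cannot be told apart.

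Lck, the kinase that starts T cell receptor signalling (chromosome 4, 129548344 to 129573641), was at 12.2, 7.77 and 13.9 CPM in KO and 3.54, 7.58 and 5.73 CPM in KI 57, 80 and 139 (1 ± 0.32, unadjusted p = 0.00502 by edgeR). Cd5, a damper of the same receptor (chromosome 19, 10717116 to 10739002), was at 4.78, 4.79 and 4.79 CPM in KO and 2.17, 2.57 and 2.24 CPM in KI (1.04 ± 0.33, unadjusted p = 0.00596). On vehicle the order of Cd5 was the opposite, with 1.13 to 3 CPM in KO and 3.31 to 4.94 CPM in KI. Trbc1, a constant part of the receptor's β chain, was at 4.15 to 4.92 CPM in KO and 1.26 to 3.73 CPM in KI (1.11 ± 0.43, unadjusted p = 0.0172). Cd3g, a signalling chain of the receptor, overlapped between groups (0.75 ± 0.32). The lineage genes Cd4 and Cd8a had 0.33 ± 0.38 and 0.23 ± 0.44. Il21r and Il12rb2, receptors for cytokines that shape T and NK cells and not on the list, were among the genes with the smallest p higher in KO. Il21r was at 6.39 to 10.9 CPM in KO and 2.74 to 4.75 CPM in KI (1.20 ± 0.35, unadjusted p = 0.00274), and Il12rb2 at 3.46 to 4.79 and 1.14 to 2.31 CPM (1.28 ± 0.38, unadjusted p = 0.00358).

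B and plasma cell genes leaned the same way. Of 22 tested, 20 had a positive log2 difference with a median of 0.76, and 2 had an unadjusted p under 0.05, Ms4a1 and Blk, both higher in KO (9.09% beside 1.04% of all genes) and neither called. Ms4a1, the B cell surface protein CD20, was at 13.7, 10.4 and 22.4 CPM in KO and 4.57, 5.14 and 9.64 CPM in KI 57, 80 and 139 (1.27 ± 0.53, unadjusted p = 0.0271 by edgeR). Blk, a kinase of the B cell receptor, was at 4.38 to 8.37 CPM in KO and 2.44 to 3.77 CPM in KI (1.03 ± 0.45, unadjusted p = 0.035). The count was 5 without KI 139, with a median of 1.13, and 0 without KI 57, with a median of 0.46, and with i5 index as a term the median was 0.06. The summed level on PFOA was 424.7 to 673.9 CPM in KO and 394.6, 411 and 444 CPM in KI 57, 80 and 139. On vehicle it was 279.6 to 411.7 CPM in KO and 761.8, 346.9 and 511.2 CPM in KI 102, 116 and 135, so the groups overlapped in both. The vehicle median was -0.72 with 5 higher in KI and 0 in KO (-0.64, 2 and 0 without KO 137). How far this rests on KI vehicle 102 was not tested. The difference between PFOA and vehicle had an unadjusted p under 0.05 in 9 of the 22 (40.9% beside 1.93% of all genes), each with KO minus KI larger on PFOA. Cxcr5, which guides B cells into follicles, was the 1 gene of 27 chemokines and receptors past that p, with and without KI 139 (1.05 ± 0.46 with it), and was lower in KO on vehicle (-1.04).

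**Figure D4:**
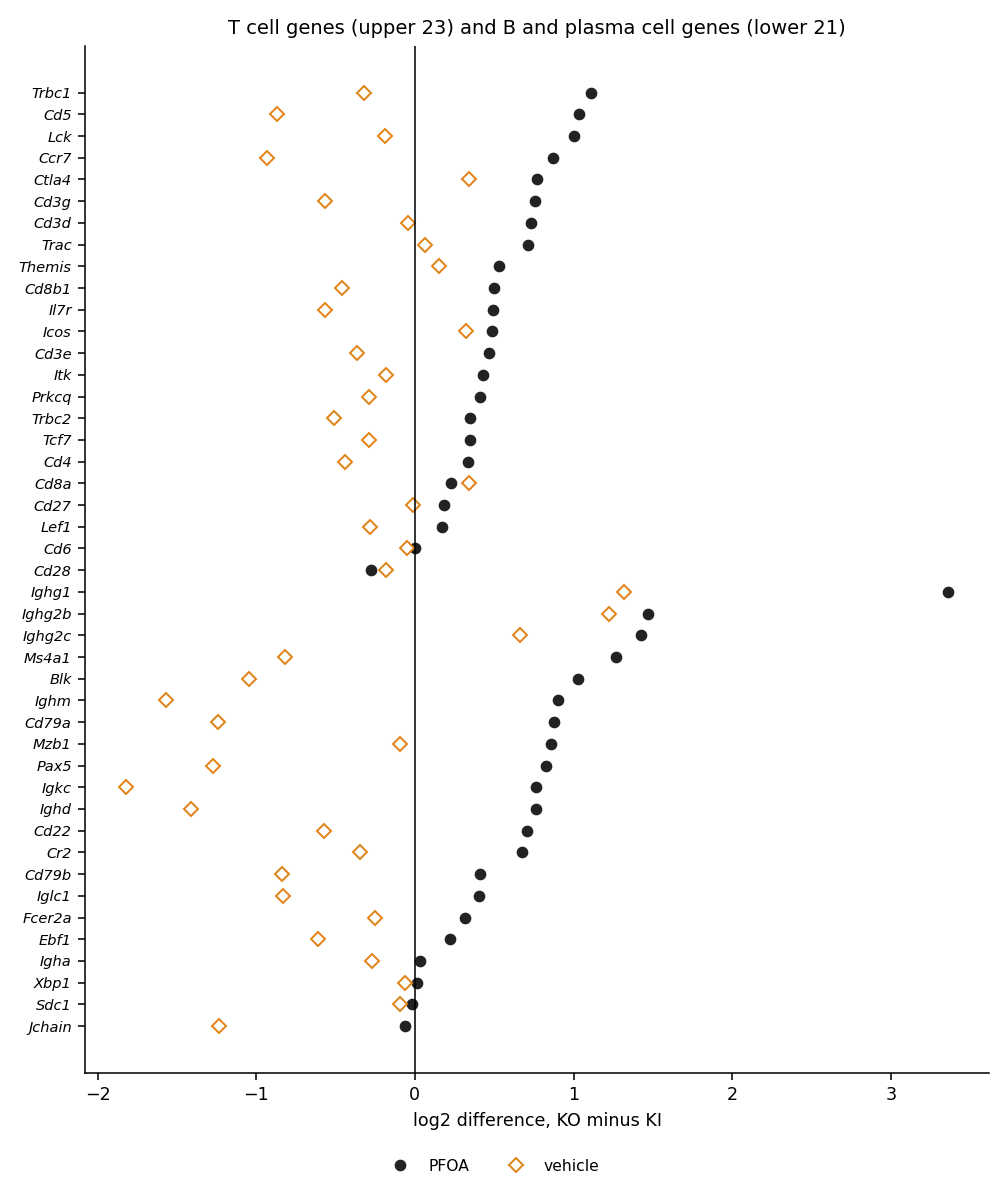
KO minus KI log2 difference (x axis) of 23 T cell genes and 21 of the 22 B and plasma cell genes tested (y axis) on PFOA (black circles) and on vehicle (open orange diamonds). On PFOA 21 of 23 and 19 of 21 lie right of 0, the medians over all members tested are 0.48 and 0.76, and the vehicle medians are -0.28 and -0.72.

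Neutrophil genes had a median of 0.79 over 15 tested, with 13 positive and 2 at an unadjusted p under 0.05, Mmp9 and Slfn4, both higher in KO (13.3% beside 1.04% of all genes). Without KI 139 the median was 0.86 and the count 2, and without KI 57 they were 0.54 and 1. Slfn4, a Schlafen family gene of myeloid cells (chromosome 11, 83175186 to 83190216), had the smallest p of the genes without overlap that were higher in KO, at 40, 11.9 and 17.2 CPM against 2.85, 8.61 and 6.99 CPM in KI 57, 80 and 139 (1.91 ± 0.46, unadjusted p = 0.000522 by edgeR). Its neighbour and paralog Slfn1 was at 20.9, 9.48 and 15.4 CPM in KO and 4.22, 7.84 and 10.3 CPM in KI (1.03 ± 0.33, unadjusted p = 0.00548), and reads may be split between such paralogs. On vehicle their log2 differences were 0.41 and -0.47. Mmp9, a matrix protease stored in neutrophils, was at 9.04 to 10.5 CPM in KO and 2.74 to 5.45 CPM in KI (1.16 ± 0.44, unadjusted p = 0.0163). The defining markers S100a8 and S100a9 were at 2.39 to 4.92 and 10.8 to 12.4 CPM in KO and at 0.343 to 3.07 and 1.71 to 9.12 CPM in KI, with 0.79 ± 0.71 and 0.99 ± 0.55. The summed level of the 15 genes was 119.5 to 187.9 CPM in KO and 85.05, 118.9 and 98.66 CPM in KI, without overlap. The study named Prkcq, Slfn4 and Slfn1 from these samples, so their values are not independent of that choice.

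Interferon response genes were split among the KO mice. Of 32 tested, Irf7 and Ifi44 had an unadjusted p under 0.05, and both were higher in KO (6.25% beside 1.04% of all genes). Irf7, the factor that amplifies type I interferon, was at 43.6, 19.6 and 24.5 CPM in KO and 11.8, 20.7 and 20.8 CPM in KI 57, 80 and 139 (0.72 ± 0.26, unadjusted p = 0.0124 by edgeR), so the highest value was KO 52 and the lowest KI 57. Oas2, an antiviral RNA sensor, had the same pattern at 38.4, 10.2 and 11.7 CPM in KO and 6.85, 15.2 and 13 CPM in KI (0.79 ± 0.41). With 6 libraries the median of the list was 0.20. Without KI 139 it was 0.32 with 4 genes higher in KO and 0 in KI, without KI 57 it was -0.02 with 4 higher in KI and 0 in KO, and without KO 52 it was -0.14 with 0 higher in KO. Of 20 inflammasome genes, Nlrp1b was higher in KO (0.71 ± 0.29, unadjusted p = 0.0242, 5% of the list), while Nlrp3, at 8.11 to 10.3 CPM in KO and 3.85 to 6.85 CPM in KI, had 0.81 ± 0.39 (unadjusted p = 0.0526) and was below 0.05 as well without KI 139.

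Genes of xenobiotic metabolism stood lower in KO. Of 30 tested, 27 had a negative log2 difference, with a median of -0.28, and 8 (26.7%, beside 3.52% of all genes of at least 1 CPM) had every KO library below every KI library. At an unadjusted p under 0.05, 7 were higher in KI (Cyp1b1, Gsta3, Gsta4, Aox3, Aldh1a1 and Gclc among them), a share of 23.3% beside 1.25%, and 0 higher in KO, with none called. The count was 3 without KI 139, 2 without KI 57, 1 without KO 154 and 9 without KI 80. The list leaned the same way on vehicle, with a median of -0.22, 4 higher in KI and 0 in KO (-0.20, 2 and 0 without KO 137). The median of the differences between PFOA and vehicle was -0.01. Aox3, an aldehyde oxidase (chromosome 1, 58113130 to 58200698), was at 96.2, 86.5 and 97 CPM in KO and 146, 130 and 134 CPM in KI 57, 80 and 139 (-0.55 ± 0.18, unadjusted p = 0.00741 by edgeR), and at -0.04 on vehicle. Aldh1a1, which makes retinoic acid, was at 670 to 931 CPM in KO and 996 to 1340 CPM in KI (-0.49 ± 0.21, unadjusted p = 0.0322). Gclc, the catalytic subunit of glutathione synthesis, was at 49.8 to 51.7 CPM in KO and 59 to 78.6 CPM in KI (-0.40 ± 0.19). Ugt1a6a, a glucuronosyltransferase (chromosome 1, 88134809 to 88218997), had the smallest p of the genes without overlap that were higher in KI, at 7.44, 6.92 and 9.27 CPM in KO and 15.2, 12.6 and 21.2 CPM in KI (-1.05 ± 0.26, unadjusted p = 0.000836). It overlaps other Ugt1a genes on the same strand, and the estimate could divide shared reads among them.

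**Figure D5:**
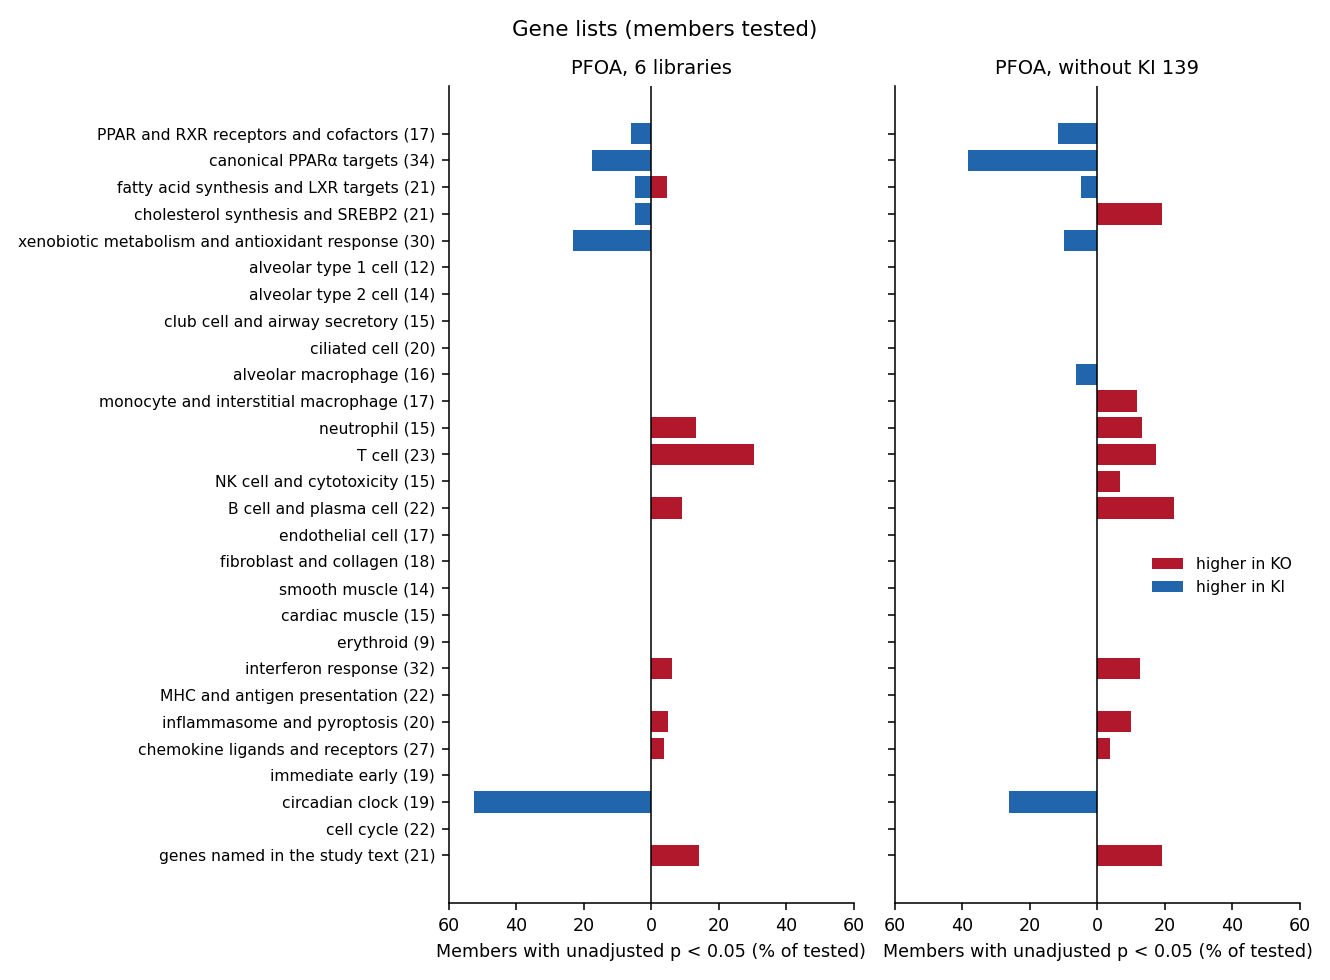
Share of each gene list (y axis, number tested in brackets) with an unadjusted p under 0.05, in percent of genes tested (x axis), higher in KO to the right and higher in KI to the left, with 6 libraries and without KI 139. The clock bar to the left is 52.6% and the T cell bar to the right 30.4% with 6 libraries, and the PPARα target bar grows from 17.6% to 38.2% without KI 139.

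Lipid synthesis genes gave few differences past an unadjusted p of 0.05. Of 21 genes of fatty acid synthesis and LXR targets, Abca1, which exports cholesterol, was higher in KI (186, 214 and 177 CPM in KO and 402, 307 and 162 CPM in KI, -0.59 ± 0.25) and Thrsp, a lipogenic nuclear protein, higher in KO (1.28 ± 0.58) at an unadjusted p under 0.05 by edgeR. Elovl6 and Acaca, which elongate and build fatty acids, had 0.50 ± 0.28 and 0.22 ± 0.15. In 5 of the 21 (23.8%, beside 4.91% of all genes) every KO library was above every KI library. Without KI 139, Abca1 alone was below that p. Of 21 cholesterol synthesis genes, Hsd17b7 had a p below that threshold and was higher in KI (-0.64 ± 0.30). Without KI 139 there were 4 below it, Sqle, Fdps and Msmo1 among them, each higher in KO. KI 139 had the highest level of Sqle, at 35.6 CPM beside 13.5 to 27.7 CPM in the other 5 libraries.

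No gene had an unadjusted p under 0.05 by edgeR with 6 libraries in the lists of alveolar type 1 (12 tested) and type 2 cells (14), club cells (15), ciliated cells (20), alveolar macrophages (16), monocytes (17), NK cells (15), endothelium (17), fibroblasts (18), smooth muscle (14), cardiac muscle (15), erythroid cells (9), antigen presentation (22), immediate early genes (19) and cell cycle (22). Of all genes 2.29% had such a p, so a count of 0 in lists this small cannot be set apart from that share. Lung identity was plain in all 6 libraries, with Sftpc, the surfactant protein of type 2 cells, at 2040 to 3135 CPM and Scgb1a1, the club cell secretory protein, at 4080 to 8997 CPM. Single libraries stood apart by these markers. The ciliated cell median was -0.40, and KI 139 had the highest sum, 1561 CPM beside 880 to 1060 CPM in the other 5 libraries. KI 139 also had the highest club cell sum, 11830 CPM beside 5019 to 7970 CPM. The cardiac muscle median was -1.33, and -0.11 without KI 57. The erythroid median was -0.02, and 1.30 without KI 57. Without KI 57, 4 of 9 erythroid genes had an unadjusted p under 0.05 by edgeR and were higher in KO, beside 0.748% of all genes. The part of these differences in the other lists was not tested. Without KI 139, genes at an unadjusted p under 0.05 were 2 monocyte genes and 1 NK cell gene, higher in KO, and 1 alveolar macrophage gene, Mertk, higher in KI. Of all genes, 1.53% were higher in KO and 1.64% higher in KI in that fit.

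The remaining genes without overlap and with the smallest p were of mixed function. Higher in KO were Wdr91, a regulator of endosomes (27.1 to 32.8 CPM in KO and 17.9 to 22.1 CPM in KI, 0.59 ± 0.18, unadjusted p = 0.00374 by edgeR), Rab44, a large Rab GTPase (0.64 ± 0.21), Ifi214, an interferon-induced gene with close paralogs (1.34 ± 0.44), Sap30, a part of the Sin3 deacetylase complex (0.68 ± 0.23), Psd (0.85 ± 0.27), Tmem156 (1.03 ± 0.33) and B430306N03Rik (1.64 ± 0.55). Wdr91 was also without overlap and higher in KO on vehicle (0.43, unadjusted p = 0.0279). Higher in KI were Endog, the mitochondrial endonuclease G (3.46 to 5 CPM in KO and 8.24 to 8.56 CPM in KI, -1.05 ± 0.32, unadjusted p = 0.00366), Abcc9, a subunit of ATP-sensitive potassium channels (-0.64 ± 0.19), Prom1, a protein of membrane protrusions (-0.84 ± 0.27), Txnl4b (-0.84 ± 0.26), Spc24, a kinetochore subunit (-1.66 ± 0.54), Shisa4 (-1.19 ± 0.37) and 9530077C05Rik (-0.77 ± 0.22). Endog was without overlap on vehicle as well (-0.79, unadjusted p = 0.0199). Hspb6, a small heat shock protein of muscle, was at 9.70 to 11.3 CPM in KO and at 39.3, 16.6 and 14.4 CPM in KI 57, 80 and 139 (-1.13 ± 0.36), and the library with the highest level, KI 57, is the one with the most cardiac muscle RNA.

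On vehicle the same genotypes gave 1 call (0.00384%), Klf2, and 2140 genes at an unadjusted p under 0.05 by edgeR, 1399 higher in KO and 741 higher in KI. Without KO 137 there were 1327, and the balance turned to 532 higher in KO and 795 higher in KI. Klf2, a flow-responsive factor of endothelium and of resting T cells, was at 49.9 to 57.3 CPM in KO vehicle and 137 to 149 CPM in KI vehicle, but at 70.9 to 110 CPM in KO and 72.5 to 83.8 CPM in KI on PFOA (0.29 ± 0.20). Of the 597 genes at an unadjusted p under 0.05 on PFOA, 73 also passed on vehicle, where 8.21% of all genes did. Of these 73, 40 had the same direction and 33 the opposite. Without KI 139, 106 of 826 also passed, 68 in the same and 38 in the opposite direction. Over 18362 genes of at least 1 CPM, the Spearman correlation of the log2 differences between exposures was -0.00768, and 0.0265 without KI 139. The difference of the KO minus KI differences between PFOA and vehicle was called in 0 genes (0%), with 1424 at an unadjusted p under 0.05 and 3 called by DESeq2. Those 1424 are 5.46% of all genes, and none of the 34 PPARα targets tested was among them. With so few targets, a count of 0 cannot be set apart from that share.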

How the data were processed

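Lung RNA libraries were made with a stranded total RNA kit. Per the study's methods and the submitters' processing notes, trimmed reads were aligned by the authors with STAR 2.6 in Partek against mm10, and an expectation-maximization model assigned them to genes. The authors deposited estimated counts per gene without normalization, and 31.3% of the values are not whole numbers. The annotation release and the use of strand in counting are not given in the sources used here, so overlapping and antisense genes cannot be separated.

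The counts were rounded, and genes with a total of at least 20 were kept (26932 of 31245, of which 26062 are autosomal). edgeR 4.0.16 in R 4.3.3 was used with TMM factors and 1 coefficient for each of 6 groups over all 17 libraries (quasi-likelihood F-test, 11 residual degrees of freedom). The Benjamini-Hochberg adjustment ran over all 26932 genes. A call needed more than a 2-fold change together with an adjusted p under 0.2. Unadjusted p are from the same edgeR fit. CPM values are TMM-normalized, and log2 differences are KO minus KI with their SE. Ends of genes are printed as the last base. The SE is the absolute log2 difference divided by the square root of the F statistic, so it includes the fitted spread between mice. Floors (3 counts) are taken over library totals without TMM factors and cover counting error only. Replicate pairs differed by more than the sampling noise (chi-square per degree of freedom at least 6.285), and each counted as 1 replicate. The tests were tried on simulated counts. Columns of no sample numbered 0.

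The members and the 28 gene lists were chosen with earlier results of these data known. The genes named are Ppara, the 12 protein-coding genes with the smallest p in each direction among those without overlap and a mean of at least 1 CPM, and up to 4 members with the smallest p of each list. Others, such as further list members given for their role and the genes called without KI 139, were chosen after their values were seen. A few genes are not reported here by name or value, and they remain in the counts, medians and sums. Alternatives were DESeq2 1.42.0, other factors and filters, sex or i5 index as a covariate, robust estimation, fewer groups in the fit and each library left out. Those that combine the omission of KI 139 with another change were added after seeing the data. Promoter windows are from RefSeq. Python 3.11.15, pandas 2.3.3, numpy 2.4.6 and matplotlib 3.10.9 were used.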

Additional observations from a re-analysis of the deposited data

Results flagged for a closer look

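Among the genes named by rule, there were 2 in which the KO and KI libraries did not overlap on either exposure and stood in opposite orders. Cd5 was higher in KO on PFOA (log2 difference 1.04) and lower in KO on vehicle (-0.87), and the difference between these was 1.91 (unadjusted p = 0.000873 by edgeR, adjusted p = 0.907). Shisa4 was lower in KO on PFOA (-1.19) and higher in KO on vehicle (0.46), and the difference between these was -1.65 (unadjusted p = 0.00493 by edgeR, adjusted p = 0.907). Neither difference passed the adjustment over all genes, and both genes were among those picked for their small p and lack of overlap on PFOA.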

How the results depend on the processing

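The number of genes called in KO against KI on PFOA was 0 with all 6 libraries and 1 with DESeq2, with or without its default filtering. Leaving out 1 library gave 0 to 5, with 5 only without KI 139. Alternatives added after seeing the data and without KI 139 gave 30 in a fit of the remaining PFOA libraries alone, 11 with DESeq2, 6 with sex as a term, 1 with i5 index as a term and 7 without KO vehicle 137 as well. Genes at an unadjusted p under 0.05 numbered 597, against 1072 in a fit of the 6 PFOA libraries alone, 1664 in that fit without KI 139, 1253 without KI 139 and KO vehicle 137, and 410 (without KI 57) to 891 (without KO vehicle 137) with 1 library left out. For KO against KI on vehicle, the 1 call became 16 with DESeq2 and 19 with its default filtering, 4 without a filter, 4 in a fit of the vehicle libraries alone, 6 with i5 index as a term, and 0 (without KO vehicle 145 or 149) to 14 (without KI vehicle 102) with 1 library left out. Without KI vehicle 116, KI vehicle 135 or KI PFOA 139 it was 2, 3 and 5. For the difference between exposures, the 0 calls became 3 with DESeq2 under either filtering, 1 without a filter, 1 in a fit of the 12 KO and KI libraries, 1 with i5 index as a term, 1 with robust estimation, and 0 to 7 (7 without KI vehicle 116 and 0 or 1 without any other) with 1 library left out. Of 2142 single-gene values (63 genes under up to 34 alternatives), 2096 kept direction and side of the threshold, 39 passed it newly and 7 changed sign. Apart from Ppara the 63 were picked for an unadjusted p under 0.05, and none was a call with all 6 libraries. Most could therefore be foreseen to stay uncalled with the same sign, and the count does not judge the size of a change. With i5 index as a term Lpin1 was at 0.20 and Blk at -0.012, and Cd3g at -0.058 when KI 139 was left out as well. 6820402A03Rik and Gm15793 were at -0.13 and -0.14 without KI 57 at -0.11 and -0.12 without KI 80, and at 8.34 and 7.21 without KI 139, where the remaining KI PFOA libraries are at 0 and the fitted value depends on the prior count. Upper-quartile factors moved the median of all genes to 0.13 on vehicle and to -0.14 for the difference between exposures. The cause of these changes was not tested. No paired analysis was possible because the replicate numbers are animal numbers and are not shared between groups. In the shallowest of the 6 libraries 3 counts are 0.451 CPM, which limits what can be said of genes near that level.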
